A study of Mus musculus with 15 samples.

Results

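The 9 genes described here belong to the Notch signalling pathway and to the Hes and Hey families of repressors: Hes1, Hes6, Hey1, Heyl, Notch1, Notch2, Notch3, Jag1 and Nrarp. They were taken by name from the 20207 genes in each table. The list was drawn up with results of these data known: Hes1 was chosen by its measured level, known to be low 135 min after Shield-1 removal. The other 8 genes joined it as related repressors, receptors, a ligand and a feedback inhibitor. Values of Hes1 are therefore given as a description, without a p-value, also where it is counted among the genes past the threshold, and the p-values of the other genes lend the choice no independent support.

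Messenger RNA was sequenced from NIH3T3 cells, a mouse embryonic fibroblast line. All 15 samples came from cells with stable expression of DD-sfGFP, in which a destabilizing domain (DD) made from FKBP is joined to superfolder GFP. Bound to its small-molecule ligand Shield-1 (S1), the DD keeps its fold, and it unfolds once S1 is taken away. The 5 control samples (cont, time 0) kept S1, and S1 was removed for 45 min (3 samples), 135 min (3 samples) or 405 min (4 samples). Per the study's methods, removal was achieved by adding purified FKBP(F36V) protein to the medium, and the cells had been sorted for high GFP fluorescence. No sample without the DD, or with the FKBP(F36V) protein alone, was analysed here. In these samples the unfolded domain and the added protein therefore cannot be told apart. For the genes it assayed by RT-qPCR, the paper reports no significant change in a line with GFP alone after S1 withdrawal. The sources do not say whether replicates were separate cultures, and p-values measure the spread between these samples only. In bulk RNA, fewer cells expressing a gene and less RNA per cell cannot be told apart either.

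Notch receptors are membrane proteins that are cut when a ligand such as Jagged1 on a neighbouring cell binds to them. The released intracellular part enters the nucleus and, with the DNA-binding protein RBPJ and a Mastermind coactivator, switches on target genes. Best known among these targets are the Hes and Hey genes, which code for basic helix-loop-helix repressors that recruit Groucho/TLE corepressors. Hes1 also represses its own gene, its transcript is short-lived, and in cultured fibroblasts its level is known to oscillate after serum stimulation. It is controlled by other signals besides Notch.

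Total counts ranged from 6652539 to 30258404 per library. The libraries were split into 2 sets, which no label names, by the slope of log2 expression on the GC content of the transcript. Set 2 held control replicate 2, 45-min replicate 3 and 405-min replicates 1, 2 and 4, and the other 10 libraries, among them all 3 of 135 min, formed set 1. Between the sets 50.1% of the tested genes differed in the fit with both set and group, so each comparison was also fitted with the set as a covariate. The split was drawn from these same expression values. Differences between sets, here and for single genes below, are therefore a description, and their p-values lend the split no independent support. What sets the libraries apart was not tested. Fibroblast markers (8 genes) summed to 1694 to 4607 RPKM (reads scaled by gene length and library depth by the authors) in every library, while epithelial markers summed to at most 0.751 and endothelial markers to at most 0.293 RPKM. The control replicate with the fewest counts, replicate 3, also had the steepest slope on GC content.

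Of the 9 genes, 5 held at least 1 count in every library and entered the test with 10276 genes in all: Hes1, Hes6, Notch1, Notch2 and Jag1. The other 4 did not pass this filter, and Hey1, Heyl, Notch3 and Nrarp were at 0 counts in 7, 9, 7 and 11 of the 15 libraries. Per unit of length, in RPKM, Hes1 (median 4.634 RPKM in the controls) and Notch2 (4.054 RPKM) were the highest of the 9 in the controls, and Hes1 was above Notch2 in only 2 of the 5 controls. Jag1 followed with a median of 1.819 RPKM and Hes6 with 1.153 RPKM, and Jag1 exceeded Hes6 in only 2 of the 5 controls, so these neighbours were not separated. Notch1 stood at 0.099 RPKM, below Hes6 and above the 4 low genes in all 5 controls. Those 4 had a control median of 0 RPKM.

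Upstream sequence from the RefSeq promoter table (assembly GRCm38.p6) was matched to the mm9 genome for 6 of the 9 genes, with 2 start sites for Hes6. Hes1, Hey1 and Heyl had no entry. The 250 bases before each start site were searched on both strands for an RBPJ site (GTGGGAA or its complement TTCCCAC), for the N box to which Hes proteins bind (CACNAG or CTNGTG) and for the E box preferred by Hey proteins (CACGTG). None of the 7 windows held the RBPJ letters, which 5.42% of the 32851 windows of this length in the table held. An N box occurred in 5 of the 7 windows and in 36.7% of all windows. The E box occurred in the Nrarp window alone, against 6.02% of all windows, and no match overlapped another. Hes6 was the member besides Hes1 that was called in a comparison with control. Of its 2 start sites, only the one shown has a window with an N box. Shown here, with the N box in capitals, are this window and that of Notch2, the most abundant receptor. Both abut the gene bounds in the deposited tables (Hes6 on the minus strand, chr1:93309800-93310049; Notch2 on the plus strand, chr3:97817211-97817460; mm9), and the matches begin 237 and 247 bases before the first transcribed base.
Hes6: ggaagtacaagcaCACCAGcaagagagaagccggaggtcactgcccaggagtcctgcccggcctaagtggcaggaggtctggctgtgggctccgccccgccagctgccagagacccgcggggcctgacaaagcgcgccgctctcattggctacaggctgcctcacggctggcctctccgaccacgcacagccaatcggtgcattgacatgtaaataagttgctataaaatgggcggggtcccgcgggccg
Notch2: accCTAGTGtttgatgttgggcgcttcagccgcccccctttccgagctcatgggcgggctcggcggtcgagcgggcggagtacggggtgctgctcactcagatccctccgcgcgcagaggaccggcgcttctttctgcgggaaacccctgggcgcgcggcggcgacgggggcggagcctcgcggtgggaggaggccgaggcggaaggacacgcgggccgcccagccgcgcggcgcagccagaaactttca
A match of 6 letters is a description of the sequence, and binding was not measured in these data.

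Hes1 (chr16:30065443-30067882, mm9), the classical Notch target, was lower in CPM in every sample collected after S1 removal than in every control. Its level in CPM, the count per 1000000 counts of the normalised library, was 16.9, 12.4, 10.1, 9.49 and 16.1 in the 5 controls. At 45 min they were 5.59, 6.92 and 5.86, and at 135 min 3.10, 1.87 and 1.89. At 405 min they were 4.38, 4.50, 6.73 and 5.40. The mean thus went from 13.0 ± 3.40 CPM (SD, n = 5) in the controls to 6.12 ± 0.706 at 45 min (n = 3), 2.29 ± 0.702 at 135 min (n = 3) and 5.25 ± 1.08 at 405 min (n = 4).

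**Figure D1:**
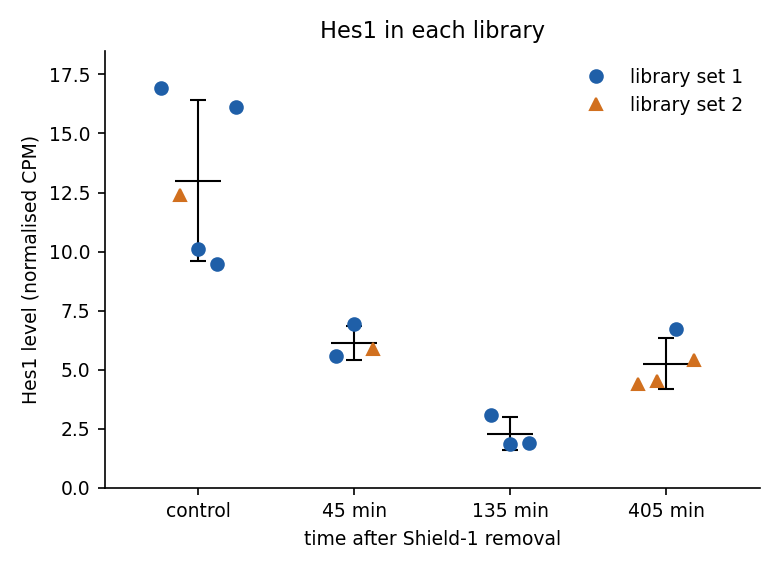
Hes1 level in CPM (counts scaled to library size, linear axis from 0) in each library by time after Shield-1 removal, with circles for library set 1, triangles for set 2, and the group mean ± SD in black. No library after removal reaches the lowest control (9.49 CPM), and the 3 libraries of 135 min (1.87 to 3.10 CPM) lie below all others.

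The log2 fold change of Hes1 against control was -1.09 (SE 0.28) at 45 min, -2.51 (SE 0.30) at 135 min and -1.31 (SE 0.26) at 405 min. In the deposited RPKM, scaled by the authors, control replicate 3 (1.713 RPKM) was below all 3 samples of 45 min (2.146 to 2.348 RPKM). It was also below 405-min replicates 3 and 4 (2.312 and 1.877 RPKM), so that those groups overlapped the controls. Why this library ranks differently in RPKM and in CPM was not tested. The 135-min samples (0.666 to 1.094 RPKM) were below all controls in RPKM too. In linear CPM terms the level was 0.47, 0.175 and 0.403 of the control level. These 3 comparisons share the same 5 control samples. In CPM, all samples lay below all controls for 0.438% of the tested genes at 45 min, for 4.73% at 135 min and for 6.4% at 405 min. The range of counts behind the values of Hes1 was 36 to 298 per library, and 36 counts carry a relative sampling error of 16.7%.

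The decrease of Hes1 appeared in both library sets. In set 1 the mean was 13.2 CPM in 4 controls, 6.26 CPM in 2 samples of 45 min, 2.29 CPM in 3 samples of 135 min and 6.73 CPM in the single sample of 405 min. In set 2 it was 12.4 CPM in the single control, 5.86 CPM in the single sample of 45 min and 4.76 CPM in 3 samples of 405 min. Hes1 itself differed between the sets by -0.22 on the log2 scale (set 2 minus set 1, SE 0.24), and with the set as covariate its changes were -1.07, -2.57 and -1.20 at 45, 135 and 405 min.

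Between 135 and 405 min the level of Hes1 rose, and all 4 samples of 405 min were above all 3 of 135 min. The log2 difference was 1.20 (SE 0.30), and 1.36 (SE 0.34) with the set as covariate. The samples of 135 min are those for which Hes1 was put on the list, so this difference also stands as a description. At 405 min the mean was still 0.403 of the control level. For 19% of the tested genes all samples of 405 min were above all samples of 135 min, and 3 of the 4 samples of 405 min belonged to the other library set.

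Hes6 (chr1:93308060-93309799) codes for a relative of Hes1 that is known to antagonise it and to favour neuronal and muscle differentiation. Its level was 3.34, 7.90, 2.61, 1.63 and 5.09 CPM in the controls and 4.89, 4.15 and 8.05 CPM at 45 min. At 135 min it was 3.58, 6.40 and 4.61 CPM, and at 405 min 10.1, 9.29, 7.59 and 10.4 CPM. The samples of 45 and 135 min overlapped the controls, while 3 of the 4 samples of 405 min were above every control and the fourth lay just below control replicate 2.

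At 405 min Hes6 was higher than control by 1.17 on the log2 scale (SE 0.38, edgeR quasi-likelihood adjusted p = 0.0395), with means of 9.34 ± 1.25 CPM (n = 4) and 4.11 ± 2.47 CPM (n = 5). The libraries of set 2 read Hes6 higher by 0.85 (log2, adjusted p = 0.0191 by edgeR), and with the set as covariate the change at 405 min was 0.78 (SE 0.32, adjusted p = 0.125) and did not pass. Within set 1 the level was 3.17 CPM in 4 controls and 7.59 CPM in the single sample of 405 min, and within set 2 it was 7.90 CPM in 1 control and 9.92 CPM in 3 samples of 405 min. The call was lost in 16 of 24 alternative analyses, in which the log2 change ran from 0.78 to 1.55. The difference between 405 and 135 min, 0.95 on the log2 scale (SE 0.44), did not pass (edgeR adjusted p = 0.179), and it was 0.30 with the set as covariate.

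Per unit of length Hes6 and Hes1 changed places. Hes6 was below Hes1 in RPKM in all 5 controls, with a median ratio of Hes6 to Hes1 of 0.28. It was above Hes1 in 1 of 3 samples of 45 min, in 3 of 3 samples of 135 min and in 4 of 4 samples of 405 min, with median ratios of 0.95, 2.65 and 2.16. The ratio contains the Hes1 values used to choose the list and is a description.

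**Figure D2:**
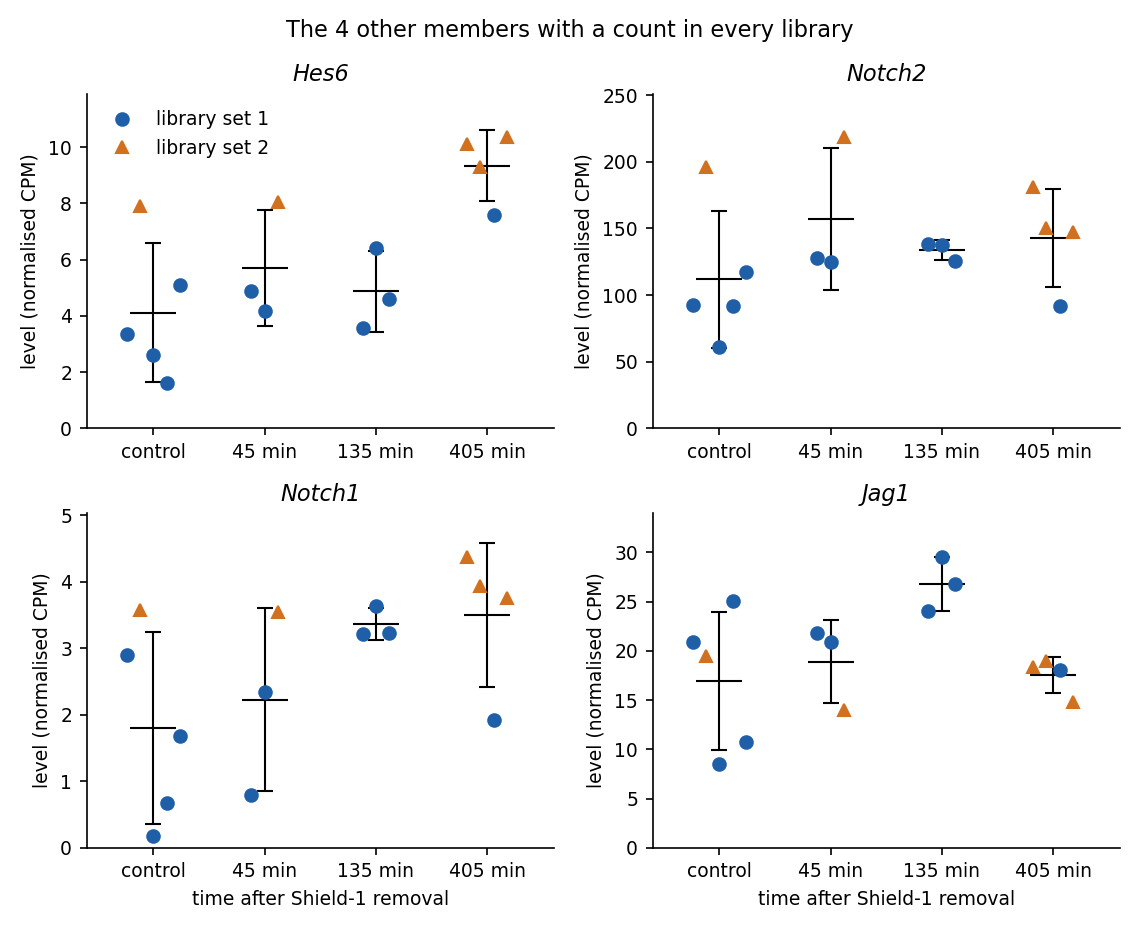
Levels of Hes6, Notch2, Notch1 and Jag1 in CPM (counts scaled to library size, linear axes from 0, a different range in each panel) by time after Shield-1 removal, with circles for library set 1, triangles for set 2, and the group mean ± SD in black. Within control and 45 min the triangles are the highest points of Hes6, Notch2 and Notch1, while Jag1 at 135 min (24.1 to 29.6 CPM) lies above Jag1 at 405 min (14.8 to 19.0 CPM).

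Hey1 (chr3:8663359-8667038) and Heyl (chr4:122910799-122927113), 2 further targets of Notch that code for repressors known from heart and vessel development, were at the edge of detection. Hey1 had counts of 0, 5, 0, 0 and 0 in the controls, 0, 0 and 6 at 45 min, 13, 6 and 8 at 135 min and 5, 8, 0 and 7 at 405 min. All 3 samples of 135 min held more Hey1 reads than any control, as 4.83% of the tested genes did in CPM. Each of the 5 libraries of set 2 also held 5 to 8 Hey1 reads whatever its group, while 7 of the 10 libraries of set 1 held none. Within set 1, the 4 controls held 0 Hey1 reads in all and the 3 samples of 135 min held 27, or 0.427 CPM. Against the floor of 3 counts over the 4 controls, 0.0569 CPM, the ratio was 7.51, with the 27 reads taken as exact. This ratio leaves out the control with Hey1 reads, which is in set 2.

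With no filter on low counts, the difference of Hey1 at 135 min did not pass (edgeR adjusted p = 0.513). With the library set as a covariate in addition, an analysis added after the data were seen, it passed (edgeR adjusted p = 0.0264 over 19601 genes). The single set 1 library of 405 min also held 0 Hey1 reads, where the depth allows a level of up to 0.288 CPM, hardly below the 0.290 CPM of the lowest 135-min library. Heyl had counts of 0, 4, 0, 3 and 0 in the controls, 0 in all 3 samples of 45 min, 6, 0 and 1 at 135 min and 0, 1, 0 and 1 at 405 min. The groups of Heyl overlapped, and no difference was detectable at this depth.

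The 3 receptors were present at very unequal levels. Notch2 (chr3:97817461-97954290) was the main Notch receptor transcript of these cells and exceeded Notch1 in RPKM by at least 28.75-fold in every library. Notch2 levels were 92.4, 196, 60.9, 92.1 and 117 CPM in the controls and 128, 125 and 219 CPM at 45 min. They were 138, 138 and 125 CPM at 135 min and 181, 150, 92.1 and 147 CPM at 405 min. Every group overlapped the controls, and the highest value of the controls and of each of 45 and 405 min came from a library of set 2. The set difference of Notch2 was 0.91 on the log2 scale (edgeR adjusted p = 0.000137).

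Notch2 did not pass in any comparison on groups alone over all 15 libraries. Its log2 change against control was 0.49 (SE 0.31) at 45 min, 0.26 (SE 0.31) at 135 min and 0.35 (SE 0.29) at 405 min, with edgeR adjusted p of 0.698, 0.811 and 0.354. With the set as covariate the value at 405 min was -0.11 (SE 0.17), and the value at 135 min was 0.51 (SE 0.16, edgeR adjusted p = 0.0611). Without control replicate 2, the set 2 control, the change at 405 min was 0.66 and passed (edgeR adjusted p = 0.0329). In that fit 4980 of 10287 tested genes passed. The RPKM ratio of Notch2 to Hes1 had medians of 1.0 in the controls, 3.16 at 45 min, 9.18 at 135 min and 4.19 at 405 min.

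Notch1 (chr2:26313422-26359342) was low and varied widely among the controls, with 2.90, 3.58, 0.174, 0.678 and 1.68 CPM. The lowest of these rested on a single read in the shallowest library. Notch1 stood at 0.794, 2.34 and 3.55 CPM at 45 min, at 3.22, 3.64 and 3.23 CPM at 135 min and at 4.38, 3.93, 1.92 and 3.76 CPM at 405 min. The changes of 0.23, 0.84 and 0.91 on the log2 scale at 45, 135 and 405 min had SEs of 0.63, 0.61 and 0.57 and did not pass (edgeR adjusted p = 0.868, 0.642 and 0.232). Set 2 libraries read Notch1 higher by 1.22 (log2, edgeR adjusted p = 0.0334), and with the set as covariate the changes were 0.02, 1.20 and 0.27.

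Notch3 (chr17:32257838-32303797), a receptor known from vascular smooth muscle, held 8, 5, 0, 0 and 0 reads in the controls, 1, 1 and 0 at 45 min, 0, 4 and 4 at 135 min and 2, 1, 0 and 0 at 405 min. No group stood apart from another in Notch3 at this depth. Notch4, the remaining mammalian receptor, was at 0 in 2 libraries and reached at most 0.184 RPKM.

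**Figure D3:**
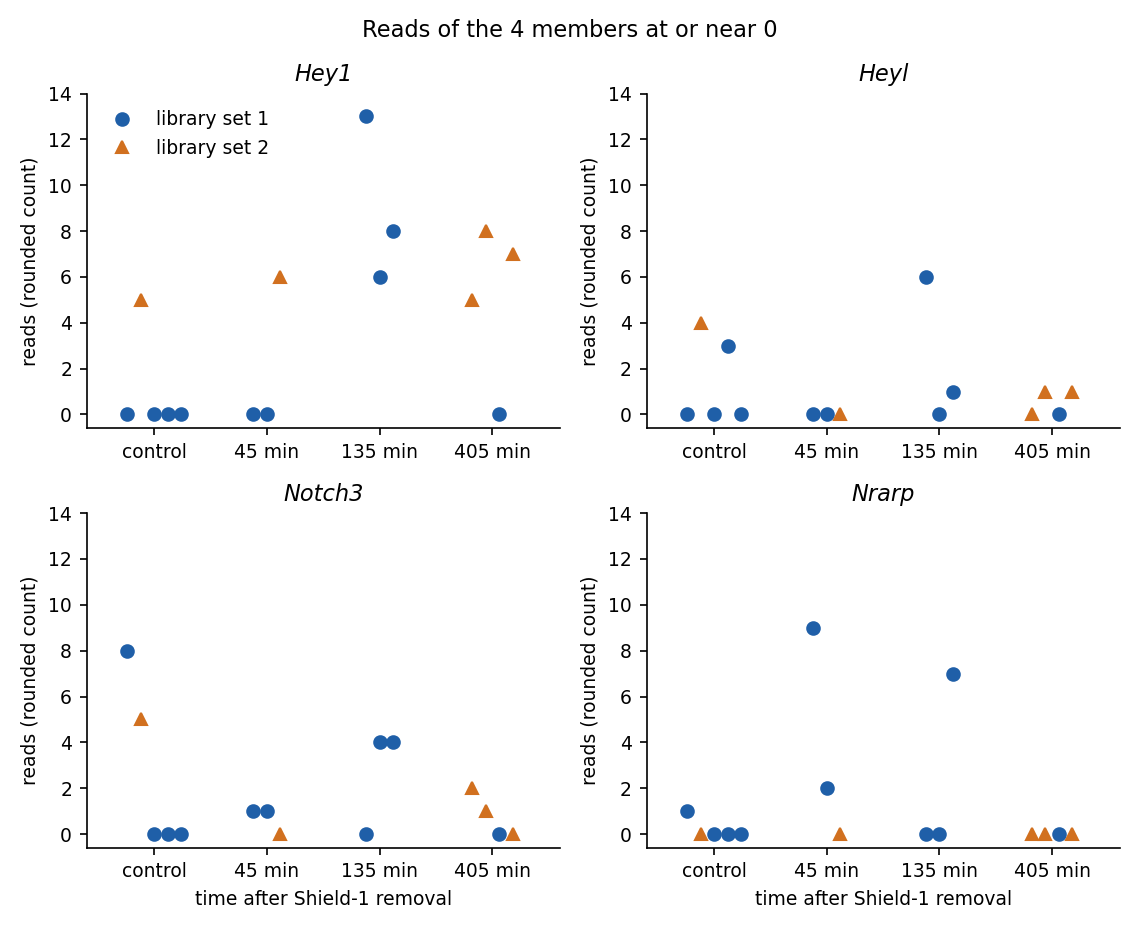
Reads (counts rounded to whole numbers, linear axes) of Hey1, Heyl, Notch3 and Nrarp in each library by time after Shield-1 removal, with circles for library set 1 and triangles for set 2. In the Hey1 panel the 3 circles at 135 min (6 to 13 reads) and the 5 triangles (5 to 8 reads) are above 0 and the other 7 circles are at 0, while the other panels hold 0 to 9 reads with overlapping groups.

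Jag1 (chr2:136907194-136942067) codes for Jagged1, a membrane ligand of the Notch receptors. Its level was 20.9, 19.4, 8.53, 25.1 and 10.8 CPM in the controls, and 21.8, 20.9 and 14.03 CPM at 45 min. It was 24.1, 29.6 and 26.8 CPM at 135 min and 18.3, 19.0, 18.1 and 14.8 CPM at 405 min. At 135 min, 2 of the 3 samples were above every control, and all 4 samples of 405 min were below all 3 of 135 min, which held for 17.8% of the tested genes.

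None of the differences of Jag1 passed on groups alone over all 15 libraries. The log2 changes against control were 0.15 (SE 0.30), 0.66 (SE 0.29) and 0.05 (SE 0.27) at 45, 135 and 405 min, with edgeR adjusted p of 0.816, 0.387 and 0.902. The difference between 405 and 135 min was -0.61 (SE 0.31, edgeR adjusted p = 0.211). Jag1 hardly differed between library sets (-0.09, SE 0.26), and with the set as covariate these 4 values were 0.15, 0.63, 0.09 and -0.54.

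Nrarp (chr2:25036278-25038852), a Notch target whose product limits the activity of the released receptor fragment, was at 0 in 11 of 15 libraries. Reads of Nrarp numbered 1, 0, 0, 0 and 0 in the controls, 9, 2 and 0 at 45 min, 0, 0 and 7 at 135 min and 0 in all 4 samples of 405 min. Without a filter on low counts, none of its comparisons passed, and the lowest edgeR adjusted p was 0.293, for 405 against 135 min.

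Across the members tested, 0 of 5 were called at 45 min, where 0% of all genes were called by edgeR. There, 365 genes had an unadjusted p under 0.05, and DESeq2 called 6 genes, Hes1 among them. At 135 min 1 of 5, Hes1, was called, against 1.46% of all genes (0.895% lower, 0.564% higher). At 405 min 2 of 5 were called, Hes1 lower and Hes6 higher, against 23.4% of all genes (13.4% lower and 9.99% higher). Between 405 and 135 min 1 of 5, Hes1, was called, against 5.06% of all genes (2.24% higher), and nothing is read from the counts that Hes1 makes up. With the set as covariate, which calls 7.93% of all genes at 135 min, 13% at 405 min and 3.68% between these times, Hes1 was the member called in each.

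**Figure D4:**
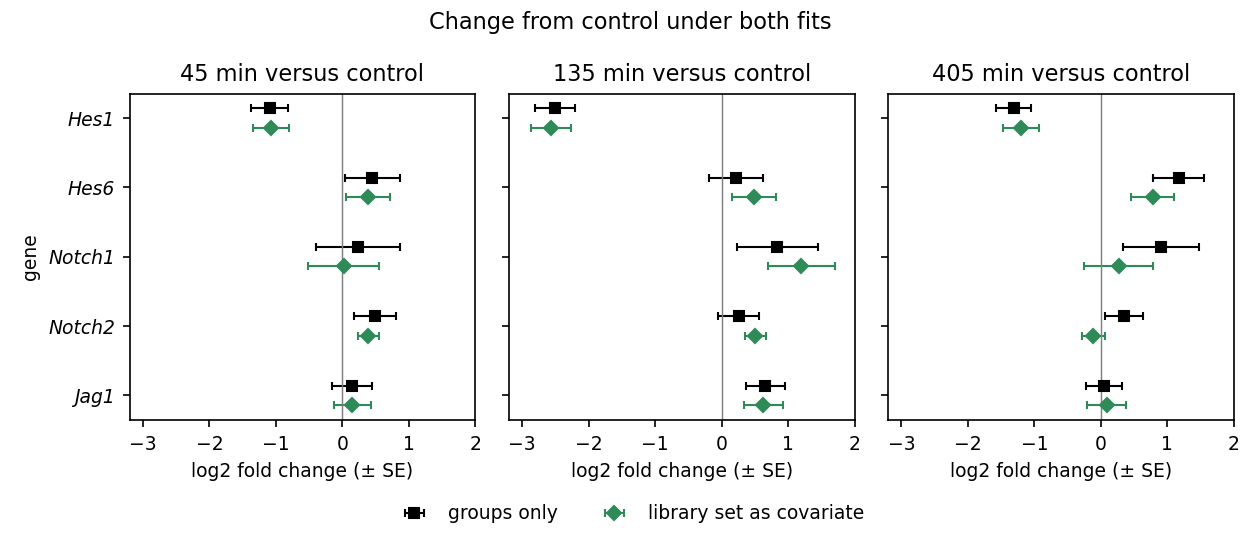
Log2 fold change against control (± SE, linear axis) of the 5 members with a count in every library at 45, 135 and 405 min, with black squares for the fit on groups alone and green diamonds for the fit with the library set as covariate. Hes1 lies left of 0 in all panels under both fits (-1.09, -2.51 and -1.31 on groups alone), and at 405 min Hes6, Notch1 and Notch2 lie closer to 0 with the covariate than without it.

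Around these members, 65 further genes of the pathway were listed, of which 64 were in the tables and 46 had a count in every library. None of the 46 was called at 45 or 135 min or between 405 and 135 min on groups alone. At 405 min 11 were called by edgeR, 4 higher and 7 lower, a share of the 46 close to the 23.4% called among all genes. The median log2 change of the 46 was 0.22 at 405 min, beside -0.001 over all tested genes, but it was 0 with the library set as covariate, beside -0.01 over all genes. With the library set as covariate, 4 were called at 405 min, all lower (6.87% of all genes were called lower and 6.17% higher), and 4 at 135 min, 2 in each direction (4.88% of all genes lower, 3.06% higher).

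In the nucleus, Rbpj, the DNA-binding protein of the pathway, had a mean of 641 ± 154 CPM (n = 5) in the controls and 323 ± 52.2 CPM (n = 4) at 405 min, a log2 change of -0.98 (SE 0.18, edgeR adjusted p = 0.00237). All 4 samples of 405 min, 277 to 398 CPM, were below all controls, 425 to 854 CPM, as were 6.4% of the tested genes. It also passed with the set as covariate, at -0.71 (adjusted p = 0.00263) at 405 min and -0.46 (adjusted p = 0.0422, both edgeR) at 135 min. The reference lists several processed copies of this gene (Rbpj-ps1, Rbpj-ps2 and Rbpj-ps3) that could share its reads, so its level is uncertain. The other 8 genes of the nuclear complex were not called in any comparison on groups alone.

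Among the ligands and their modifiers, Dlk2, a membrane protein related to the Notch ligands, showed the largest decrease of the 46 at 405 min. Its mean was 8.67 ± 4.58 CPM in the controls (5.14 to 16.4 CPM) and 2.09 ± 0.334 CPM at 405 min (1.73 to 2.53 CPM), a log2 change of -2.02 (SE 0.35, edgeR adjusted p = 0.00161) that was -2.09 with the set as covariate (adjusted p = 0.0019). Mib2, a ubiquitin ligase for Notch ligands, rose by 1.70 (SE 0.50, adjusted p = 0.0271) and was above all controls in all 4 samples, as were 6.74% of the tested genes, but did not pass with the covariate (1.11, adjusted p = 0.0884). The ligands Dll1, Dll3, Dll4 and Jag2 did not have a count in every library, and none of them exceeded 0.454 RPKM in any library.

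Of the genes that glycosylate the receptor, Lfng, a Fringe enzyme that tunes ligand choice, fell by 1.29 on the log2 scale at 405 min (edgeR adjusted p = 0.0199), and Ktelc1, now called Poglut1, fell by 0.56 (adjusted p = 0.0323). Neither passed with the set as covariate (adjusted p = 0.0909 and 0.136). Aph1a, a subunit of the gamma-secretase that releases the receptor fragment, rose by 1.22 (adjusted p = 0.031), and Numb, which promotes removal of Notch receptors from the membrane, rose by 0.59 (adjusted p = 0.0431). With the covariate Aph1a gave 0.72 (adjusted p = 0.0512) and Numb 0.44 (adjusted p = 0.16), so neither passed.

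Of 12 corepressor genes tested, 4 were called at 405 min on groups alone, beside 23.4% of all tested genes. Spen, which recruits repressor complexes to RBPJ, rose by 0.64 (edgeR adjusted p = 0.0154), while Hdac2 fell by 0.96 (adjusted p = 0.0222), Ctbp2 by 0.41 (adjusted p = 0.0347) and Ncor1 by 0.32 (adjusted p = 0.0404). With the covariate Ctbp2 passed, at -0.44 (adjusted p = 0.0429), and the others did not: Spen gave 0.39 (adjusted p = 0.053), Hdac2 -0.48 (adjusted p = 0.0859) and Ncor1 -0.23 (adjusted p = 0.124). At 135 min Spen was at 129, 140 and 121 CPM, above all controls (73.2 to 112 CPM), as were 4.83% of the tested genes. Spen passed there with the covariate (0.62, edgeR adjusted p = 0.00558) but not without it (0.52, adjusted p = 0.207).

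With the covariate, 2 more genes passed by edgeR at 135 min. Fbxw7, part of a ubiquitin ligase that degrades the Notch fragment, rose by 0.80 (adjusted p = 0.0308), with 11.5, 15.8 and 12.5 CPM against 5.89 to 11 CPM in the controls. Bhlhe40, a repressor related to the Hes family and part of the circadian clock, fell by 1.06 (adjusted p = 0.00183), with 11.3, 12 and 12.7 CPM against 21.9 to 53.3 CPM. Both were outside the range of the controls in all 3 samples. At 135 min 4.83% of the tested genes were above all controls and 4.73% below. Neither gene passed without the covariate (edgeR adjusted p = 0.275 and 0.104). Bhlhe40 was lower at 405 min too with the covariate (-0.61, adjusted p = 0.0295), but not on groups alone (-0.01). The related repressors Hes2, Hes3, Hes5, Hes7, Hey2 and Helt did not have a count in every library, and none had more than 13 reads in any.

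**Figure D5:**
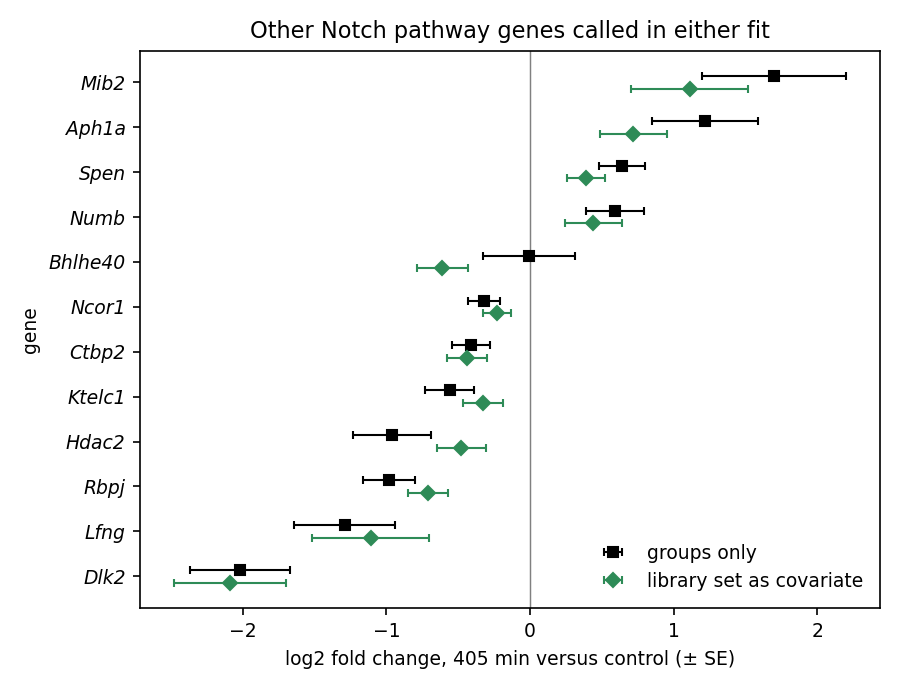
Log2 fold change at 405 min against control (± SE, linear axis) of the 12 further Notch pathway genes called in either fit, with black squares for the fit on groups alone and green diamonds for the fit with the library set as covariate. Dlk2 (-2.02) and Mib2 (1.70) lie at the ends, and 9 of the 12 diamonds are nearer to 0 than their squares.

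Among markers of other cell types, the neural and leukocyte sums in RPKM were higher in every 405-min library than in every control. Of the single tested genes, 6.74% were above all controls in CPM at 405 min. The other sums overlapped the controls. Epithelial markers summed to 0.056 to 0.323 RPKM at 405 min against 0.126 to 0.751 RPKM in the controls, and endothelial markers to 0.129 to 0.231 against 0.062 to 0.29. Skeletal muscle markers summed to 0.0 to 0.13 RPKM against 0.0 to 0.085 RPKM. The summed RPKM of 3 neural markers (Nes, Tubb3 and Sox2) was 4.852 to 6.155 at 405 min and 2.756 to 4.04 in the controls. Most of it was Nes (median 3.649 RPKM over all libraries, against 0.532 for Tubb3), with Sox2 at 0 in most libraries. The sum of 3 leukocyte markers (Cd68, Itgam and Ptprc) was 1.358 to 2.025 against 0.213 to 1.054, nearly all of it Cd68. Of the 4 samples of 405 min, 3 were of library set 2. The part of these markers in the values of Hes6 and of the pathway genes at 405 min was not tested.

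Over the 15 libraries, the 5 tested genes whose log2 CPM followed that of Hes1 most closely were Klf10 (Pearson r = 0.92), Id2 (0.90), Sertad4 (0.89), Arrdc3 (0.88) and Gas1 (0.87). The likeness is a description over libraries that share their groups and their sets, and after the mean of each library set was removed it was 0.94, 0.90, 0.93, 0.91 and 0.88. Klf10, a zinc finger factor induced by TGF-beta, had means of 67.2, 45.9, 17.6 and 45.3 CPM in the controls and at 45, 135 and 405 min. Id2, an inhibitor of basic helix-loop-helix factors, had means of 102, 51.6, 16.4 and 39.4 CPM. All 5 were lowest at 135 min and higher again at 405 min, and the mean of each at 405 min stayed below its control mean. As the 5 were picked for their likeness to Hes1, this shared course follows from the choice. None of the other tested members followed Hes1, with r of -0.27 for Hes6, -0.38 for Notch1, -0.31 for Notch2 and -0.55 for Jag1.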

How the data were processed

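RNA from 15 NIH3T3 samples was sequenced on a HiSeq instrument, and the samples were grouped by title. Per the labels, libraries were made with a NuGEN Encore Complete kit, while the study's methods describe an in-house ligation protocol and a further NuGEN kit. The authors aligned reads to mm9 and quantified RefSeq genes on DNAnexus (aligner not given in the sources used here). The values deposited as read counts were expected counts, which need not be whole: 8.7% to 15.6% of the genes of a library held a fraction, and large values carried 4 significant digits. The authors also deposited RPKM, used here to compare levels between genes, and a Z score and a ratio of RPKM to its root mean square, which were not used.

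Expected counts were rounded, and genes with at least 1 count in every library were kept (10276 genes), as in the study's methods. The 4 groups were fitted together over the 15 libraries with the quasi-likelihood test of edgeR 4.0.16 (R 4.3.3, TMM scaling). P-values were adjusted by Benjamini-Hochberg across the tested genes, with a threshold of 0.05, and the SE is the log2 fold change over the square root of F. CPM are counts per 1000000 of the TMM-scaled library total. The procedure was run on simulated counts without a library set difference, so that run does not test it under the set differences seen here. Total counts of 6652539 to 30258404, a ratio of 4.5, set the precision; floors of 3 counts and sampling errors cover counting error only. Over the 22 pairs of replicates within groups, chi-square per degree of freedom was 10.0 to 237.2, so no such pair agreed within sampling noise. Library sets were split at the largest gap in the slope of log2 CPM on GC content (log2 units per 10 GC points): -1.374 to -0.658 in set 1 and -0.362 to 0.055 in set 2. No label gives this split.

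The members and gene lists were chosen with earlier results of these data known. Named were all 9 members, up to 12 called pathway genes per comparison by size of change, and the 5 tested genes with the highest Pearson correlation with Hes1. Alternatives were DESeq2 1.42.0 and its size factors, no filter, filterByExpr, only the compared groups, the library set as covariate, set 1 alone, a replicate block and leaving out each library.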

Additional observations from a re-analysis of the deposited data

Results flagged for a closer look

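In 3 cases a single library lay far from the rest of its group by the ratio of its gap to the group's range, among 17 groups of 4 or 5 libraries examined. Chance marks about 1 group in 20 for continuous values, but that rate does not hold here: where all other libraries are at 0, any read gives a ratio of 1.0, and all 3 cases are of genes near 0. Hey1 was at 0.248 CPM in control replicate 2 and at 0 in the other 4 controls (ratio 1.0). Hey1 was at 0.0 CPM in 405-min replicate 3 and between 0.342 and 0.381 CPM in the other 3 libraries of that group (ratio 0.896). In both cases the library that stood apart was the only one of its library set in the group. Nrarp was at 0.0726 CPM in control replicate 1, which is 1 read, and at 0 in the other 4 controls (ratio 1.0).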

How the results depend on the processing

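Over 24 alternatives, the log2 change of Hes1 ran from -1.19 to -0.98 at 45 min, from -2.79 to -2.39 at 135 min, from -1.44 to -0.98 at 405 min and from 1.07 to 1.55 between 405 and 135 min, given as a description because Hes1 was chosen on these data. The counts of members below include Hes1 and carry the same limit. Set 1 alone has a single library of 405 min, assumed to vary like the rest. Hes6 at 405 min lost its call in 16 of 24 (0.78 to 1.55). No called value changed its sign.

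Members called at 405 min, 2 in the report, numbered 1 with no filter, filterByExpr, only the compared groups, the set as covariate, the replicate block, and set plus no filter (added after seeing the data), and 0 in set 1 alone. Between 405 and 135 min, 1 in the report, they numbered 0 with no filter, filterByExpr, set 1 alone, the replicate block, and set plus no filter, and 3 (Hes1, Hes6 and Jag1) with only the compared groups. DESeq2 called 1 member at 45 min, and set plus no filter called 2 at 135 min, Hes1 and Hey1. Over all tested genes at 405 min, 2409 were called in the report, 3410 with DESeq2, 1724 with no filter and 2234 with filterByExpr. There were 812 with only the compared groups, 1340 with the set, 800 with the replicate block and 1116 with set plus no filter. Pathway genes called at 405 min, 11 in the report, numbered 19 with DESeq2, 6 with no filter, 2 with only the compared groups, 4 with the set, 0 in set 1 alone, 3 with the replicate block and 3 with set plus no filter. At 135 min, 0 in the report, they numbered 1 with DESeq2, 4 with the set, 2 in set 1 alone and 2 with set plus no filter; between 405 and 135 min, 0 in the report, 6 with DESeq2 and 16 with only the compared groups.

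Leaving out each library in turn gave 0 to 0 members at 45 min, 1 to 1 at 135 min, 1 to 3 at 405 min and 0 to 1 between 405 and 135 min, and 0 to 0, 0 to 0, 3 to 28 and 0 to 7 pathway genes. At 405 min 1 member remained without control replicates 1, 3, 4 or 5, 45-min replicate 1, 135-min replicate 3, or 405-min replicates 1, 2 or 4, and 3 were called without control replicate 2. Between 405 and 135 min none was called without 45-min replicate 1, any 135-min replicate, or 405-min replicates 1, 2 or 4. The pathway count at 405 min was 28 without control replicate 2 and 18 without 405-min replicate 3. It was 5, 6, 4, 3 and 4 without control replicates 1 or 4 or 405-min replicates 1, 2 or 4. Calls over all tested genes at 405 min moved too, from 2409 in the report to 4980 without control replicate 2. They numbered 3561 without 405-min replicate 3. Without control replicates 1 or 4 or 405-min replicates 1, 2 or 4 they numbered 1473, 1374, 969, 1131 and 959. Between 405 and 135 min the pathway count was 7, 6, 1 and 5 without control replicates 2 or 3, 45-min replicate 3 or 405-min replicate 3. The cause of these changes was not tested.

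Deviations from the group mean correlated at -0.113 on average in the 19 same-number pairs (-0.72 to 0.46, 4 over 0.1). In the 64 other pairs they correlated at 0.029. The library set was not removed from these deviations, so they cannot show whether the replicate numbers pair the libraries. Depth limits Hey1, Heyl, Notch3 and Nrarp, whose counts of 0 allow up to 0.522 CPM in the shallowest library.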
